A study of Mus musculus with 3 samples.

Results

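Sox9, Sox5 and Sox6, the transcription factors of the chondrogenic Sox trio, were followed across the cells of mouse intervertebral discs. The 3 genes were taken by symbol from the 30406 genes that all libraries list. Sox9 is an SRY-box factor with a DNA-binding HMG box and activation domains, and it is required for cartilage formation. It binds enhancers of cartilage matrix genes such as Col2a1 and Acan. Sox5 and Sox6 are close relatives of each other that carry an HMG box and a coiled-coil domain but no activation domain of their own, and they act in cartilage by strengthening the action of Sox9. All 3 genes are also known from the notochord and from the nucleus pulposus, the gel-like centre of the disc that descends from it. Sox6 has a separate role in the red cell lineage, where it acts with Bcl11a on globin genes and in maturation.

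The mice had the genotype shh-cre:R26R-tdTomato, were untreated and were at postnatal day 30. Cre recombinase was driven from Shh, so the reporter labels the Shh lineage, which includes nucleus pulposus cells. Cells from lumbar, thoracic and caudal discs that were positive for tdTomato were enriched by sorting, and each of the 3 libraries pooled animals of matched litters. All libraries belong to 1 group, so comparisons were made between cell classes within it, and the spread over libraries is also the spread over pools and sequencing batches.

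Sox9 lies on chromosome 11 of mm10 from 112782224 to 112787760 on the plus strand, with 1 annotated transcript. Sox5 lies on the minus strand of chromosome 6 from 143828425 to 144781977, with 14 transcripts. Sox6 lies on the minus strand of chromosome 7 from 115470872 to 116038796, with 16 transcripts. RefSeq's table of gene starts on GRCm38.p6 gave 1 promoter for Sox5 and 6 for Sox6, each from 250 bases before a start to 50 after it. The 1 Sox5 promoter lies inside the annotated gene, whose 5′ end on the minus strand is at 144781977. It therefore belongs to an internal start, not the outermost one. Both strands were searched for the SOX motifs ACAAAG and ACAATG and for the GATA motifs AGATAA and TGATAA, the latter because GATA1 is the leading factor of the red cell lineage. A SOX match was held by 28.6% of all 32851 mouse promoters in the table, a GATA match by 18.6%, and both by 6.86%. Of the 6 Sox6 promoters, 5 held a SOX match, and those numbered 3 and 4 from the outermost start held a GATA match as well. The Sox5 promoter, the outermost Sox6 promoter and the 2 Sox6 promoters with both motifs are printed 5′ to 3′ on the gene's strand, with the matches in capitals. A match on the other strand reads CTTTGT or CATTGT for SOX and TTATCT or TTATCA for GATA. They are shown because Sox6 was abundant in 2 unrelated lineages in these data and has several starts. The kit reads the 3′ end of transcripts, so the counts do not tell which start a cell used.
Sox5 promoter, chr6:143947057-143947356, minus strand: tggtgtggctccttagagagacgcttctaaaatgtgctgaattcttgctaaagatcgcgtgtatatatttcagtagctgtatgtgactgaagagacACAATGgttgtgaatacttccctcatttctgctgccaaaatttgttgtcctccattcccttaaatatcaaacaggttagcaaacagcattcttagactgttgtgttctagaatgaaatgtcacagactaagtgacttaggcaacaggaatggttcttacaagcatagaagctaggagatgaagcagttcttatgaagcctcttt
Sox6 promoter 1, chr7:116038695-116038994, minus strand: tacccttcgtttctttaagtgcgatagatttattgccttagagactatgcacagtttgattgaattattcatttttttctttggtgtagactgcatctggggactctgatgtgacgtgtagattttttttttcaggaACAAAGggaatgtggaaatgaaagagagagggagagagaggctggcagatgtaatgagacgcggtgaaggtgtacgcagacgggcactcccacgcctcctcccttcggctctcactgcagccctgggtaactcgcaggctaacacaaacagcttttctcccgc
Sox6 promoter 3, chr7:115995037-115995336, minus strand: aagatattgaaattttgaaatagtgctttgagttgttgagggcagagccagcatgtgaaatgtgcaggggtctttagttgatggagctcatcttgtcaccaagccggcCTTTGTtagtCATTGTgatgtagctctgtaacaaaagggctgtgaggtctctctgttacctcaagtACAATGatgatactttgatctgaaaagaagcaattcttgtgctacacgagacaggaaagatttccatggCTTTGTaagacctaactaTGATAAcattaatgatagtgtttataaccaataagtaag
Sox6 promoter 4, chr7:115846091-115846390, minus strand: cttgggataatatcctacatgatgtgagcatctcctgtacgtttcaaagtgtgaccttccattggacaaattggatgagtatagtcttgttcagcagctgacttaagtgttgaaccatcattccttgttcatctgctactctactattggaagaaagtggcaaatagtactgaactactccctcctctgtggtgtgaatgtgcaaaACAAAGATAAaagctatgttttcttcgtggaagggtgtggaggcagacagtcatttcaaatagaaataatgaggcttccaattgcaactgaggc
In Sox6 promoter 4 the SOX and GATA matches overlap in the run ACAAAGATAA. Promoter 3 held 4 SOX matches and 1 GATA match, and the Sox5 promoter held 1 SOX match. Of the 15 cartilage genes in a fixed list of known or proposed Sox9 targets, 13 had promoters in the table, and 0 of their 16 promoters held a SOX match.

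The libraries held 64695292 to 145925353 unique molecular identifiers (UMIs, each standing for 1 captured transcript) on 7430 to 11767 barcodes. A barcode was kept when it had 500 genes or more and no more than 15% mitochondrial UMIs, which left 5732, 10786 and 10364 in libraries 1, 2 and 3. Each was gated into 1 of 19 classes when it held a UMI of at least 3 of that class's fixed marker genes and of fewer than 3 markers of every other class. None of the 3 Sox genes is a marker of a gate, but the chondrocyte gate (Cnmd, Matn3, Col9a1, Col9a2, Col9a3, Epyc, Ucma and Snorc) holds genes that Sox9 is known to activate, such as Col9a1. Cells in the nucleus pulposus gate (Krt8, Krt18, Krt19 and T) numbered 433, 115 and 24, and those in the chondrocyte gate 737, 265 and 43. The erythroid gate held 165, 1344 and 772 cells, and most of the other gated cells were blood cells too, despite the sort. Barcodes that met 2 or more gates made up 30.2%, 27.8% and 29.4% of those kept, were left out, and held 29.7% to 42.4% of each Sox gene's UMIs in a library. Libraries 1 and 2 shared 24 barcodes, 0.323% of those in the smaller library. Libraries 1 and 3 shared 29 (0.39%), and libraries 2 and 3 shared 224 (2.03%), and the reason was not tested. Of the genes checked outside the gates, Col2a1 and Car3 went with the class names. Col2a1, the main cartilage collagen, stood at 30500 ± 6805 CPM (UMIs of the gene per 1000000 UMIs of a library's cells in the class) in the chondrocyte gate and 479.8 ± 354.9 in the nucleus pulposus gate. Car3, a carbonic anhydrase gene known from nucleus pulposus cells, stood at 13.3 ± 18.6 and 25910 ± 7667 (SD, n = 3). Others set the classes apart less. Cd24a stood at 433.7 ± 69.1 and 2637 ± 597.0 in these gates, but at 2130 ± 255.6 in erythroid cells. Acan, at 3431 ± 700.3 and 2981 ± 2568, overlapped between the 2 gates. Shh itself was at or below 2.51 CPM in every nucleus pulposus sum, although Shh drove the Cre.

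Sox9 was highest in chondrocytes. Its level was 1026 CPM in library 1, 793.2 in library 2 and 487.7 in library 3 of the chondrocyte gate. The mean was 769 ± 270 (SD, n = 3), on 9343 Sox9 UMIs. The level was lower where a library held fewer chondrocytes, and the lowest library still exceeded every other class. Nucleus pulposus cells followed with 196.6, 326.3 and 97.3, a mean of 206.7 ± 114.8. The value of library 3 rests on 6 UMIs in 24 cells. Cells of the annulus or tendon gate had 191.9, 95.3 and 77.4, a mean of 121.5 ± 61.6, and loose fibroblasts had 129.5, 68.1 and 33.0. The ranges of nucleus pulposus, annulus or tendon, and loose fibroblast cells overlapped each neighbour's, so these 3 classes could not be ordered beyond their spread. Osteoblasts had 30.4, 4.12 and 2.45, none reaching the lowest loose fibroblast value. In blood classes the mean level was at most 1.72.

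The low Sox9 level in blood cells followed the libraries' own Sox9 content. B lineage cells, which should lack Sox9, had 4.16, 0.659 and 0.0581 CPM in libraries 1, 2 and 3, while all kept barcodes of these libraries held 12939, 4552 and 420 Sox9 UMIs. The shares of B lineage cells with a Sox9 UMI were 2.01%, 0.398% and 0.0321%, at median depths of 2665, 3473 and 2589 UMIs per cell. Sox9 in neutrophils ran in the same order, at 1.98, 0.219 and 0 CPM, and the 0 among 1765 cells of library 3 allows a level of up to 0.203. These are taken as the background of each library, and a value near them is not read as expression.

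Sox5 was also highest in chondrocytes and varied little between libraries there. The chondrocyte gate held 132.1, 128.9 and 134.0 CPM of Sox5, a mean of 131.7 ± 2.58 (SD, n = 3). Unlike Sox9, it showed no ordering by library. Loose fibroblasts had 24.7, 38.9 and 8.25, on 11 UMIs in all. Nucleus pulposus cells had 20.1 and 39.2 in libraries 1 and 2, and the 0 UMIs in library 3 allow up to 48.7. Annulus or tendon cells had 21.9, 9.08 and 4.55, on 7 UMIs. Those 3 classes overlapped each other. B lineage cells had 1.96, 2.28 and 1.74 CPM of Sox5, which did not follow the libraries' Sox5 content of 1611, 728 and 171 UMIs. Monocytes or macrophages, T or NK cells, megakaryocytes and osteoclasts held 0 Sox5 UMIs.

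Sox6 was highest outside cartilage. Erythroid cells held 235.0, 170.1 and 169.6 CPM of Sox6, a mean of 191.6 ± 37.6 (SD, n = 3), and their lowest library exceeded every value of every other class. Chondrocytes had 77.3, 62.9 and 72.3, a mean of 70.8 ± 7.32. Nucleus pulposus cells had 61.5, 84.8 and 32.4, a mean of 59.6 ± 26.3, and overlapped the chondrocytes. The value of library 3 rests on 2 UMIs. Annulus or tendon cells had 27.4, 22.7 and 4.55, all below the lowest nucleus pulposus value. Osteoblasts had 11.4, 7.94 and 10.2, a mean of 9.86 ± 1.76 on 126 UMIs, with a narrower spread than their Sox9. B lineage cells had 0.245, 0.539 and 0.523 and neutrophils 0.263, 0.438 and 0.271, and T or NK cells, plasmacytoid dendritic cells and osteoclasts held 0 Sox6 UMIs.

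**Figure D1:**
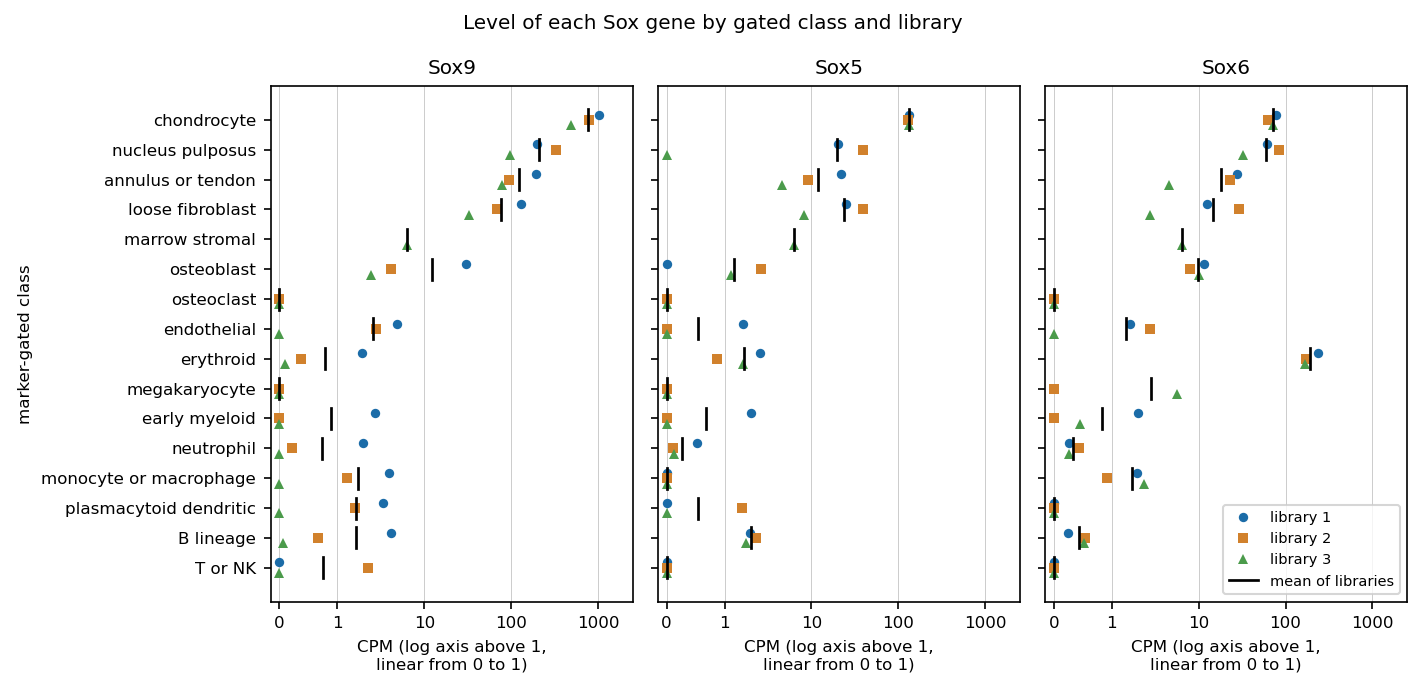
CPM of Sox9, Sox5 and Sox6 (x axis, logarithmic above 1 and linear from 0 to 1) in 16 marker-gated classes (y axis). Each symbol is 1 library's sum of at least 10 cells and the black bar the mean of libraries. Chondrocytes lead for Sox9 (mean 769) and Sox5 (131.7), and erythroid cells lead for Sox6 (191.6).

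The balance of the 3 genes differed between classes. The kit counts 1 tag per transcript, so their UMIs can be set side by side without regard to length, as a description of captured tags. Of the chondrocytes' trio UMIs, Sox9 made up 83.1%, 80.5% and 70.3% in libraries 1, 2 and 3, Sox5 10.7%, 13.1% and 19.3%, and Sox6 6.25%, 6.38% and 10.4%. For nucleus pulposus cells of libraries 1 and 2, Sox9 made up 70.7% and 72.5%, Sox5 7.22% and 8.70%, and Sox6 22.1% and 18.8%. Sox6 therefore outnumbered Sox5 in nucleus pulposus cells, and Sox5 outnumbered Sox6 in chondrocytes of every library. In erythroid cells 98.1% to 99.3% of trio UMIs were of Sox6. In osteoblasts Sox6 made up 54.0% and 73.8% in libraries 2 and 3.

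Nucleus pulposus cells had less Sox9 and less Sox5 than chondrocytes, while Sox6 did not pass the test. Classes were compared on UMIs summed per library and class in 1 fit over 44 sums, with the library as a block (edgeR quasi-likelihood test, Benjamini-Hochberg adjustment over the 13422 genes tested). Sox9 was lower by a log2 fold change of -1.92 (SE 0.395, adjusted p = 0.000261) and Sox5 by -2.34 (SE 0.394, adjusted p = 2.50e-05), each lower in 3 of 3 libraries. Sox6 differed by -0.02 on the log2 scale (SE 0.289, adjusted p = 0.995), which does not show that the levels are equal. In this comparison 15.6% of all genes were called lower and 12.3% higher, with a median of -0.14, so the call of 2 of 3 members as lower stands beside a broad difference between the classes. Without the library block the Sox9 difference was no longer called (edgeR adjusted p = 0.0583). The exclusive gates also left out nucleus pulposus cells with at least 3 chondrocyte markers. With barcodes in 2 or more gates given to 1 class, Sox9 differed by -1.68 (edgeR adjusted p = 0.0363) and Sox5 by -2.20 (edgeR adjusted p = 0.00201). Without library 2 the Sox9 and Sox5 differences were larger, -2.66 and -2.95, and the Sox6 value turned sign under 6 of 16 alternatives and ranged from -0.67 (gates of at least 2 markers) to 0.33, called under none.

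Chondrocytes exceeded the other connective classes in all 3 members, in the fit and in every library's level. The other classes were annulus or tendon, osteoblast, marrow stromal and loose fibroblast cells, weighted equally, with 1 marrow stromal sum, from library 3. Sox9 differed by a log2 fold change of 4.94 (SE 0.386, adjusted p = 1.95e-12), Sox5 by 4.26 (SE 0.388, adjusted p = 3.14e-10) and Sox6 by 2.88 (SE 0.359, adjusted p = 1.6e-07) by the same edgeR test. Of all genes, 12.4% were called higher and 5.12% lower, with a median of 0.26. The split was 1662 genes higher and 687 lower here, 1348 and 888 with edgeR's RLE factors in place of TMM, and 1119 and 1154 with DESeq2, which changes both the scaling and the test. All 3 calls held under each of 16 alternatives.

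Against the equally weighted log average of those connective classes, all 3 members were called higher in nucleus pulposus cells too. This does not hold class by class, since the Sox9 and Sox5 ranges overlapped those of annulus or tendon cells and loose fibroblasts, and mean Sox5 was 23.9 CPM in loose fibroblasts and 19.8 in nucleus pulposus cells. Here Sox9 differed by 3.02 (SE 0.463, adjusted p = 3.41e-06), Sox5 by 1.92 (SE 0.528, adjusted p = 0.00584) and Sox6 by 2.86 (SE 0.391, adjusted p = 6.59e-07) on the log2 scale, by the same edgeR test. Sox9 and Sox6 were higher in 3 of 3 libraries and Sox5 in 2 of 3. Of all genes, 16.6% were called higher and 10.8% lower, with a median of 0.15, and the 2224 higher and 1452 lower became 1576 and 2138 with DESeq2 and 1748 and 1954 with RLE factors. Without library 2 the Sox5 call was lost (edgeR adjusted p = 0.170) and the Sox9 value was 2.14. A fitted value averages logarithms over the connective classes, so it depends most on the classes with the lowest levels. The 2 comparisons with connective classes share those classes and are not independent.

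Against blood cells the contrast was wider. Chondrocytes exceeded the blood classes other than erythroid cells by fitted log2 fold changes of 10.1 for Sox9, 9.12 for Sox5 and 7.39 for Sox6, and nucleus pulposus cells by 8.16, 6.78 and 7.36. All 6 were called by the edgeR test, with adjusted p of at most 1.93e-11, beside 34.4% and 29.7% of all genes called higher. Several blood sums hold 0 UMIs of these genes, so the fitted size depends on edgeR's prior count and is no bound.

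Within blood, Sox6 set the erythroid cells apart. The fitted log2 fold change against the other blood classes was 9.26 (SE 0.251, adjusted p = 2.05e-25, edgeR) and it too depends on the prior count. In this comparison 28.3% of all genes were called higher and 19.9% lower, 3801 and 2674 genes against 3225 and 4794 with DESeq2. Sox5 was called higher as well, by 3.11 (SE 0.828, adjusted p = 0.00199), but from a level of 1.69 ± 0.836 CPM on 34 UMIs. B lineage cells, 1 of the classes it was compared with, stood at 1.99 ± 0.268, and without library 3 the Sox5 call was lost (edgeR adjusted p = 0.0686). Sox9 did not pass the test in erythroid cells (log2 fold change -0.11, SE 1.16, adjusted p = 1). Its values there, 1.91, 0.373 and 0.103 CPM, ran in the same order as the B lineage background.

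**Figure D2:**
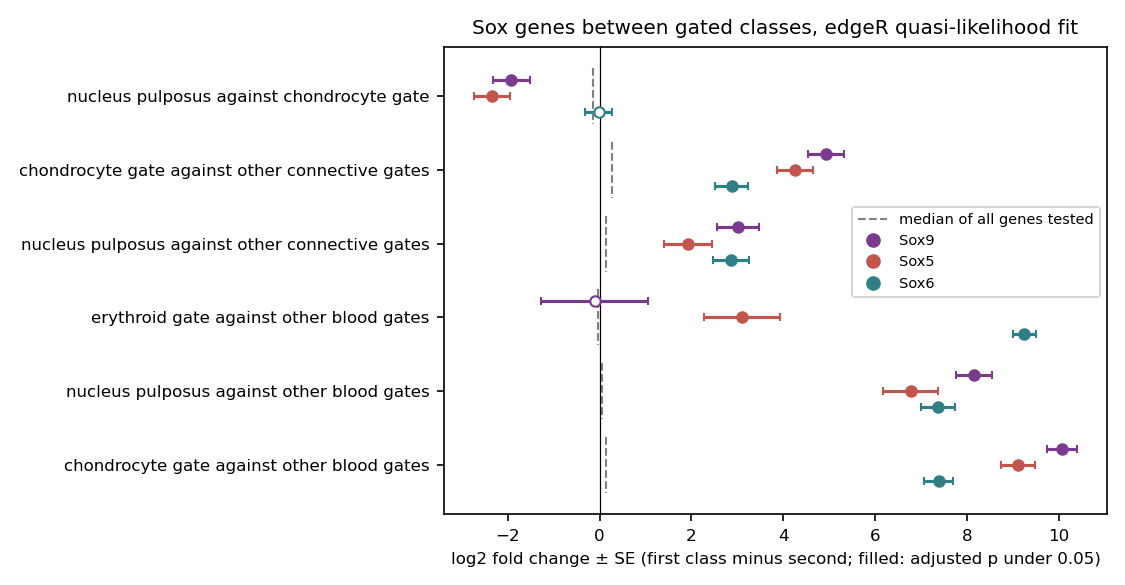
Log2 fold change (x axis) of Sox9, Sox5 and Sox6 in 6 comparisons between gated classes (y axis). Whiskers are approximate standard errors, derived from the log2 fold change and edgeR's F statistic. Filled circles have an adjusted p under 0.05 and dashed lines mark the median of all 13422 genes tested. Sox6 lies at -0.02 between nucleus pulposus cells and chondrocytes and at 9.26 between erythroid and other blood cells.

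Most chondrocytes had a Sox9 UMI, and fewer had one of Sox5 or Sox6. The share with a Sox9 UMI was 92.3% in library 1 (95% Clopper-Pearson interval 90.1 to 94.1), 93.6% in library 2 (89.9 to 96.2) and 88.4% in library 3 (74.9 to 96.1). For Sox5 the shares were 58.8%, 67.2% and 60.5%, and for Sox6 40.6%, 42.6% and 44.2%. The 10th to 90th percentile of Sox9 UMIs per chondrocyte ran from 1 to 21 in library 1, around a median of 7 and with a highest count of 69. In library 3 the median was 3 and the highest count 19. The median chondrocyte of every library had 1 Sox5 UMI and 0 Sox6 UMIs.

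Detection in nucleus pulposus cells differed widely between libraries. A Sox9 UMI was found in 34.6%, 66.1% and 12.5% of cells, a Sox5 UMI in 5.54%, 19.1% and 0%, and a Sox6 UMI in 16.4%, 34.8% and 8.33%. The 0 of 24 cells in library 3 allows a share of up to 12.5%. The cells of library 2 were also the deepest, with a median of 7833 UMIs against 2633 and 1930. Their mitochondrial share differed too, with medians of 0.057%, 2.61% and 0.081% in libraries 1, 2 and 3. The part of either in the difference between libraries was not tested. Intervals and limits cover counting error only.

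Thinning each cell to 2000 UMIs removed the difference in depth. The expected share of chondrocytes with a Sox9 UMI was then 79.1%, 71.1% and 59.1%, of Sox5 24.6%, 24.7% and 24.1%, and of Sox6 14.3%, 11.4% and 15.2%. In nucleus pulposus cells with at least 2000 UMIs, of which there were 287, 105 and 12, the Sox9 share was 25.5%, 40.0% and 8.93%. Every chondrocyte value for Sox9 lay above every nucleus pulposus value. For Sox6 the nucleus pulposus shares were 11.2%, 12.9% and 7.59%, overlapping those of chondrocytes. In erythroid cells the Sox6 share was 72.1%, 73.2% and 73.8% before thinning, and 41.7%, 34.5% and 34.1% after it, above the chondrocytes in every library. The unthinned Sox6 share in B lineage cells was 0.118% to 0.358%.

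All 3 genes were detected together in 203 of 737 chondrocytes of library 1 (27.5%), 87 of 265 of library 2 (32.8%) and 12 of 43 of library 3 (27.9%). The same held for 1, 9 and 0 of the 433, 115 and 24 nucleus pulposus cells. In erythroid cells 0 held all 3, which allows shares of up to 1.82%, 0.223% and 0.389%. Of the chondrocytes with a Sox6 UMI, 288 of 299, 109 of 113 and 18 of 19 also had a Sox9 UMI, where most chondrocytes had one in any case.

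At equal depth, co-detection in chondrocytes was close to what the single shares multiply to. For Sox9 with Sox5 the ratio of the observed share to the product was 0.981, 1.06 and 1.01 in libraries 1, 2 and 3. For Sox9 with Sox6 it was 0.999, 1.00 and 1.17, and for Sox5 with Sox6 0.972, 1.11 and 0.889. For all 3 genes the shares were 2.65%, 2.39% and 2.45%, at ratios of 0.953, 1.19 and 1.13. Sox9 with Sox5 and Sox5 with Sox6 lay above 1 in some libraries and below it in others. In nucleus pulposus cells, Sox9 with Sox6 had ratios of 1.03 and 1.11 and Sox9 with Sox5 1.52 and 1.20 in libraries 1 and 2, the latter on 11 and 19 cells before thinning. For Sox5 with Sox6 the ratios were 0.248 and 1.16, on 2 and 11 cells, and for all 3 genes 0.0424 and 1.12, on 1 and 9 cells.

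**Figure D3:**
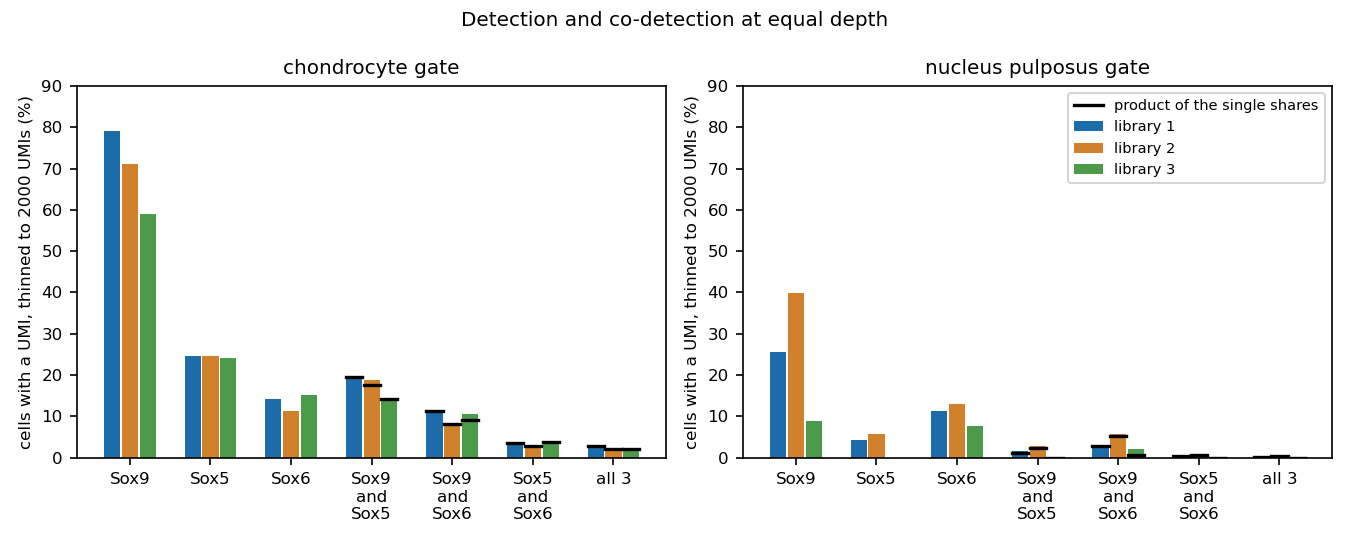
Expected share of cells with a UMI after thinning to 2000 UMIs (y axis, percent) for single genes, pairs and all 3 genes in the chondrocyte gate (left) and the nucleus pulposus gate (right). Bars are libraries and black lines the product of the single shares. In chondrocytes the bars for all 3 genes (2.39% to 2.65%) lie near their lines.

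Whether Sox5 and Sox6 went with Sox9 from cell to cell was tested on thinned cells, split by a Sox9 UMI and summed per library. In chondrocytes, cells with and without a Sox9 UMI numbered 539 and 144, 173 and 81, and 26 and 15 in libraries 1, 2 and 3. Sox5 stood at 150.3, 179.2 and 192.3 CPM in Sox9-detected cells and at 135.4, 104.9 and 66.7 in the others, higher in 3 of 3 libraries at 2000 UMIs. At 1000 UMIs it was lower in 2 of 3 libraries (126.2 against 138.6 CPM in library 1, and likewise in library 2). At 4000 UMIs Sox5 was lower in library 1 (125.2 against 132.8 CPM) and higher in library 2. Library 3, at 142.9 against 156.2 CPM, had 8 cells without a Sox9 UMI and was left out of that fit. The fitted Sox5 log2 fold change at 4000 UMIs was 0.34 (SE 0.314), in the same direction as at 2000 UMIs. At 2000 UMIs Sox6 stood at 77.9, 78.0 and 57.7 against 59.0, 74.1 and 133.3. Neither passed the test (edgeR, log2 fold change 0.43, SE 0.248, for Sox5 and 0.15, SE 0.302, for Sox6, both with an adjusted p of 0.9998). Of the 2996 genes tested, 0 were called by edgeR (0%), and 113 had an unadjusted p under 0.05. Of 14 cartilage target genes, 10 had a positive log2 fold change and 0 were called, with a median of 0.10 against 0.01 for all genes. That tally turned with the depth and the libraries, to 5 of 13 (median -0.02) at 1000 UMIs, 4 of 14 (-0.09) at 4000 UMIs and 6 of 14 (-0.02) without library 3. Thinned single cells hold few UMIs of these genes, so a small difference was not detectable at this depth.

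The same split of nucleus pulposus cells could be tested in libraries 1 and 2, with 75 against 212 and 48 against 57 cells. Sox5 was too sparse to be tested, at 7 against 8 and 5 against 1 UMIs. Sox6 stood at 106.7 and 83.3 CPM in Sox9-detected cells and at 70.8 and 52.6 in the others, and did not pass the test (log2 fold change 0.60, SE 0.401, edgeR adjusted p = 0.673, 1 residual degree of freedom). Of the 1753 genes tested, 11 were called (0.627%), 8 higher and 3 lower in Sox9-detected cells, and they are named here after their values were seen. The higher ones were Acan (0.74, adjusted p = 0.023), Fn1, Spp1, Malat1 and 4 mitochondrial genes, and the lower ones the globin genes Hba-a1, Hbb-bs and Hbb-bt (-2.61, -3.20 and -3.41). Of 8 cartilage target genes tested, 7 had a positive value, with a median of 0.50 against 0.01 for all genes, and 1 was called, Acan. Without the library block 0 genes were called by edgeR, with 7 at an unadjusted p under 0.05. At 1000 UMIs edgeR called 5 of 1052 genes, 1 of them a target gene, and at 4000 UMIs 0 of 2671. The share of cells with a Sox9 UMI also differed with their mitochondrial share, as given below. The part of that in these values was not tested.

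Within the nucleus pulposus gate, the level of Sox9 differed with the mitochondrial share of the cells, a split chosen after the data were seen. Cells with under 1% of UMIs from mitochondrial genes numbered 386, 32 and 17, and those with 1% or more 47, 83 and 7. Sox9 stood at 162.2, 201.5 and 65.0 CPM in the cells under 1% and at 300.3, 345.8 and 129.6 in the others, higher in 3 of 3 libraries. Sox6 stood at 48.5 and 101.0 in library 1, 8.06 and 96.8 in library 2, and 32.5 and 32.4 in library 3, the last on 1 UMI each. Median depths were 2484.5, 3430.5 and 1250 UMIs in the cells under 1% and 5335, 10045 and 4171 in the others, so depth moved with the split, and its part in the difference was not tested. At 2000 UMIs per cell the Sox9 share was 23.6% against 37.5% in library 1 and 26.5% against 44.0% in library 2. Of these cells, 17, 5 and 5 lay near the limit, between 0.5% and 2%. Chondrocytes had median mitochondrial shares of 2.70% to 3.69%. With nucleus pulposus cells and all other classes restricted to 1% to 15%, which left nucleus pulposus sums in libraries 1 and 2 alone, since library 3 kept 7 cells, Sox9 and Sox5 stayed called lower than in chondrocytes (log2 fold change -1.72 and -2.24, edgeR adjusted p = 0.000951 and 0.000201).

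Chondrocytes with at least 2 UMIs of Col10a1, the collagen of hypertrophic cartilage, could be summed in libraries 1 and 2, with 81 and 16 cells. Their Sox9 was 1147 and 701.1 CPM against 1009 and 801.3 in the other chondrocytes, so the 2 libraries went opposite ways. Sox5 was 119.4 and 111.1 against 134.0 and 130.4, and Sox6 62.7 and 38.5 against 79.4 and 65.0, both lower in 2 of 2 libraries. In library 2 the values of the Col10a1 cells rest on 26 Sox5 UMIs and 9 Sox6 UMIs. No test was made of this split.

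Within the erythroid gate Sox6 went with haemoglobin content. Cells were binned by the share of haemoglobin genes in their UMIs, also after the data were seen. Below 10%, with 24, 261 and 239 cells, Sox6 stood at 18.8, 57.9 and 61.7 CPM. From 10% to 50%, with 103, 553 and 343 cells, it stood at 379.2, 271.8 and 278.1. At 50% or more, with 38, 530 and 190 cells, it stood at 388.5, 262.1 and 319.1. Both upper bins exceeded the lowest bin in every library. Counted against UMIs other than haemoglobin, the 3 bins had 19.0, 525.3 and 1037 in library 1, 59.1, 393.1 and 715.1 in library 2, and 62.9, 380.4 and 875.5 in library 3, higher at each step. Leaving out haemoglobin UMIs raises the value most in the highest bin by construction, so the second step is not read as a rise. Against all UMIs that step went up in libraries 1 and 3 and down in library 2. Cells in the lowest bin were the deepest, with median UMIs of 20522 to 26588 against 5353 to 9241 in the other bins, and the part of depth and of doublets in this was not tested. A share of those cells lay close to the limits, 23, 123 and 102 between 5% and 15%.

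**Figure D4:**
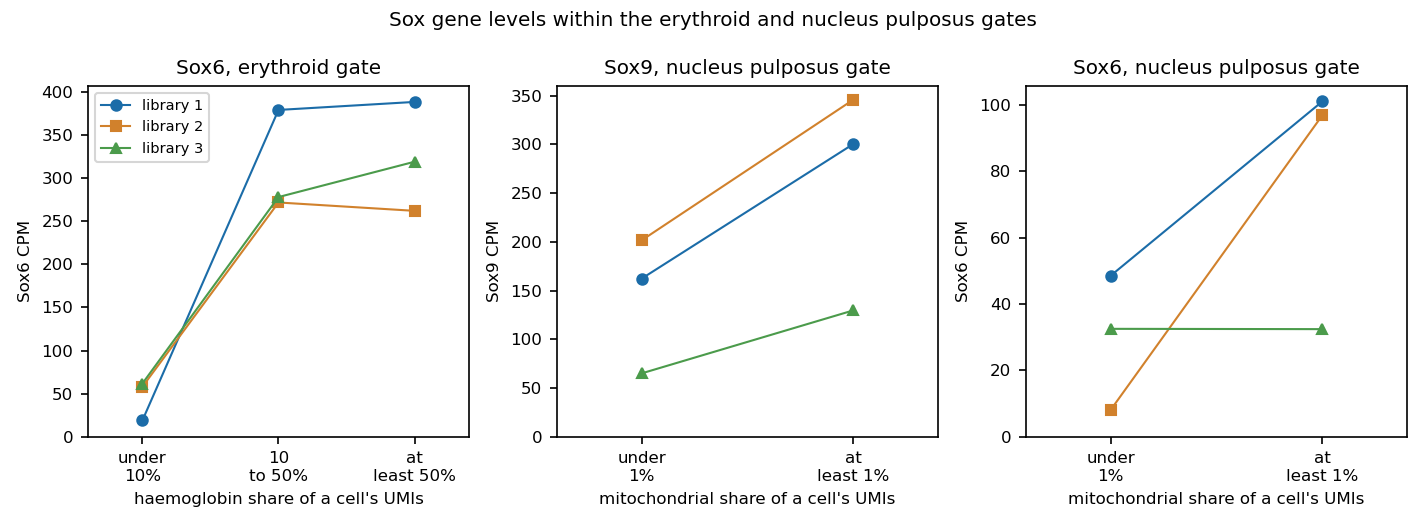
CPM (y axes, from 0) of Sox6 by haemoglobin share in the erythroid gate (left), and of Sox9 (middle) and Sox6 (right) by mitochondrial share in the nucleus pulposus gate. Lines join the values of 1 library. Sox6 is at 18.8 to 61.7 in the lowest haemoglobin bin and at 262.1 or more in the others.

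Barcodes that met both the nucleus pulposus and the chondrocyte gate, 48 and 35 in libraries 1 and 2, had Sox9 at 725.6 and 498.4 CPM and Sox5 at 69.0 and 38.6. These lay between the 2 single gates or, for Sox5 of library 2, just under its nucleus pulposus value of 39.2. Their Sox6, 82.3 and 90.8, lay above both single gates in each library. Such barcodes may be doublets or single cells, which was not tested.

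Of 16 other Sox genes, 8 could be tested. Sox8, a close relative of Sox9, was higher in chondrocytes than in the other connective classes (74.2 ± 13.5 against 1.83 ± 1.62 CPM, log2 fold change 8.50, adjusted p = 4.65e-09, edgeR), the only 1 of the 8 called there, where 12.4% of all genes were called higher. Sox8 (log2 fold change -2.83, adjusted p = 0.000399) and Sox4 (-3.00, adjusted p = 0.000226) were lower in nucleus pulposus cells than in chondrocytes, the 2 called of 8, where 15.6% of all genes were called lower. Sox4, a factor of progenitor and lymphoid cells, stood at 11.9 ± 7.51 in nucleus pulposus cells, 82.1 ± 10.9 in chondrocytes and 597.3 ± 244.3 in B lineage cells. Against the other connective classes, nucleus pulposus cells had lower Sox4 (log2 fold change -3.53, adjusted p = 1.24e-05) and higher Sox8 (5.66, adjusted p = 0.00443, on 22 UMIs). Sox8 stood at 6.90 ± 8.44 CPM in nucleus pulposus cells and 4.80 ± 4.29 in loose fibroblasts, which overlap within their spread. Annulus or tendon and marrow stromal cells held 0 Sox8 UMIs. In erythroid cells Sox12 was called higher (2.23, adjusted p = 1.98e-08) and Sox4 lower (-2.91, adjusted p = 1.63e-07) than in other blood cells, beside 28.3% and 19.9% of all genes. Neither call holds class by class. Sox12 stood at 10.4 ± 3.79 CPM in erythroid cells, 8.47 ± 1.95 in B lineage cells and 0.112 ± 0.103 in neutrophils. Its mean was higher in megakaryocytes than in erythroid cells. Sox4 stood at 8.96 ± 4.91 CPM in erythroid cells and 1.98 ± 1.15 in neutrophils. Antisense Sox6os held 98 UMIs in erythroid cells, where Sox6 held 4760. Whether the authors' counting used strand is not given in the sources used here.

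Of the 15 cartilage genes that Sox9 is known or proposed to activate, 14 could be tested, and 11 were lower in nucleus pulposus cells than in chondrocytes and 0 higher, beside 15.6% and 12.3% of all genes. Their median log2 fold change was -3.88, against -0.14 for all genes. Chondrocytes were gated on other cartilage genes, and the exclusive gates left out nucleus pulposus cells that met the chondrocyte gate as well. The gates therefore favour lower cartilage genes in nucleus pulposus cells, and their part in these differences was not tested. The largest of these differences were in Mia, a secreted cartilage protein, Comp, a matrix thrombospondin, and the collagen gene Col27a1, at -9.61, -9.53 and -6.41 (adjusted p of at most 7.82e-11, edgeR). Comp stood at 6.80 ± 9.95 CPM in nucleus pulposus cells and 5069 ± 66.6 in chondrocytes. Acan, S100b and Wwp2 did not pass the test. Acan, the core protein of aggrecan, stood at 2981 ± 2568 and 3431 ± 700.3. S100b, a calcium-binding protein gene, stood at 542.5 ± 35.7 and 386.2 ± 76.2. Wwp2, a ubiquitin ligase gene, stood at 566.4 ± 209.3 and 807.0 ± 133.6.

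Against the other connective classes, all 14 tested cartilage genes were higher in chondrocytes, beside 12.4% of all genes and with a median of 4.71 against 0.26, led by Col2a1 (log2 fold change 10.7), Acan (8.48) and Hapln1, the link protein of aggrecan (8.45), with adjusted p of at most 1.88e-09. The gating of chondrocytes on cartilage genes favours this direction too. In nucleus pulposus cells 6 of the 14 were higher and 3 lower, beside 16.6% and 10.8% of all genes, with a median of 1.14 against 0.15. Acan (8.16), Hapln1 (6.75) and S100b (5.18) led the higher ones, with adjusted p of at most 1.22e-07. Comp (-4.91, adjusted p = 3.33e-05), Col11a1 (-2.12, adjusted p = 0.00362) and Col27a1 (-1.35, adjusted p = 0.0387) were the lower ones. Col2a1 counts among the 6, at 4.52, although its plain mean over the connective classes, 746.8, exceeds the 479.8 of nucleus pulposus cells. Annulus or tendon cells stood at 2325 ± 409.0 and osteoblasts at 47.8 ± 44.4.

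Of 18 regulators and partners, 16 could be tested, and 9 were lower and 1 higher in nucleus pulposus cells than in chondrocytes, beside 15.6% and 12.3% of all genes, with a median of -1.58 against -0.14. The higher one was Barx2, a homeobox factor, at 346.1 ± 74.0 against 3.27 ± 3.12 CPM (log2 fold change 6.32, adjusted p = 4.13e-11, edgeR). Its relative Barx1 was among the lower ones, at 0.209 against 97.5 ± 52.0 (-7.40, adjusted p = 2.28e-06). Pthlh and Ihh, the ligands that pace growth-plate cartilage, held 0 UMIs in the nucleus pulposus sums and 40.2 ± 21.5 and 17.1 ± 22.4 CPM in chondrocytes. Of 8 hypertrophy genes, 4 were lower, Col10a1 (-6.25, adjusted p = 2.64e-09), Ihh, Panx3 and Runx2 among them, and 1 was higher, Spp1, the osteopontin gene (2.84, adjusted p = 0.00473). In chondrocytes 6 of the 16 regulators and 4 of the 8 hypertrophy genes were called higher than in the other connective classes, and 0 were called lower, beside 12.4% and 5.12% of all genes. They included Barx1 (7.29, adjusted p = 7.40e-08) and Col10a1 (6.49, adjusted p = 7.70e-09). Panx3, a channel gene, was called too, although its plain mean over the connective classes, 19.2 CPM, exceeds the 9.51 of chondrocytes.

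In nucleus pulposus cells against the other connective classes, 1 of the 16 regulators tested was called higher and 4 lower, beside 16.6% and 10.8% of all genes. The higher one was Barx2 (8.99, adjusted p = 6.66e-12, edgeR). Runx2 (-3.50, adjusted p = 0.0217), Smad3 (-2.23, adjusted p = 0.0162) and Med12 (-1.93, adjusted p = 0.00102) were among the lower ones. In erythroid cells 2 of the 16 were called higher than in other blood cells and 5 lower, beside 28.3% and 19.9% of all genes. Med12, a subunit of the Mediator complex, was higher (1.32, adjusted p = 4.18e-08), and Arid5b, Runx2 and Trps1 were lower (-5.43, -4.39 and -4.26, adjusted p of at most 6.82e-09).

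Among the erythroid partners and globins, 10 of 11 tested genes were higher in erythroid cells than in other blood cells, and 0 were lower, beside 28.3% and 19.9% of all genes, with a median log2 fold change of 6.35 against -0.04. The adult globin genes Hba-a1, Hbb-bt and Hbb-bs led them (8.83, 8.59 and 8.49, adjusted p of at most 2.00e-16). Gata1 stood at 107.0 ± 37.7 CPM, Tal1 at 143.7 ± 36.9 and Bcl11a at 71.3 ± 14.3. Bcl11a was called higher (1.15, adjusted p = 0.00132), although its plain mean over the other blood classes was 104.2. The embryonic globin genes Hbb-y, Hbb-bh1 and Hba-x, at 0.392 ± 0.341, 0.752 ± 1.00 and 0.726 ± 1.15, could not be tested. Globin RNA was also found in nucleus pulposus cells, where Hbb-bs stood at 1288 ± 1731 against 181.9 ± 54.5 in chondrocytes and 124800 ± 25450 in erythroid cells. Between nucleus pulposus cells and chondrocytes 5 of 11 genes of the list were called higher, beside 12.3% of all genes, the 3 globin genes above among them, and the part of free erythroid RNA in the Sox6 level of nucleus pulposus cells was not tested. B lineage cells and neutrophils held Hbb-bs at 729.4 ± 570.2 and 1169 ± 1153, and Sox6 at 0.436 ± 0.166 and 0.324 ± 0.0986.

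The genes whose mean levels over the 15 classes with sums in at least 2 libraries were most like each member were named by a fixed rule, as Pearson r of log2(mean CPM + 1) among 13373 genes. Many genes are high in few classes, so such r values are descriptions. For Sox9 they were Ngef (r = 0.990), Tcfl5 (0.984), Gm15867 (0.980), Ndufa4l2 (0.971) and Chst5 (0.971). For Sox5 they were Slurp1 (0.969), Stk32b (0.956), Paqr6 (0.952), Sox9 (0.952) and Gfpt2 (0.951). For Sox6 they were Dpf3 (0.917), Mboat2 (0.888), 4933431E20Rik (0.887), Tmem56 (0.884) and Scrn3 (0.874), of which 4 were highest in erythroid cells. None is a marker of a gate. The members' own r was 0.952 between Sox9 and Sox5, 0.672 between Sox9 and Sox6 and 0.713 between Sox5 and Sox6.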

How the data were processed

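Single cells of sorted, tdTomato-positive disc cells were measured in 3 libraries with the 10x Chromium 3′ kit, version 3. The deposited matrices hold raw counts of UMIs per gene and barcode. Reads were processed with Cell Ranger 3.0.2 on mm10, and Seurat 4 was used, per the submitters' processing notes; the matrices name versions 3.0.1 and 6.0.0 per the file headers. The 30406 genes listed in all libraries were used, and 0 columns of other samples were present.

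Barcodes were filtered and gated as the report states, and UMIs were summed per library and class with at least 10 cells. Sums were tested with edgeR 4.0.16 in R 4.3.3 (glmQLFit, TMM scaling, filterByExpr) with class and library as terms. Contrasts weight classes equally on the log scale. Each SE given is the absolute log2 fold change divided by the square root of edgeR's F statistic. It is therefore approximate, and unstable where the fold change is near 0. For Sox9 in erythroid cells it was 1.16 in the main fit and 6.55 with RLE factors. The library is a block because sums with the same replicate number come from the same library and pool of animals. Nothing says whether the 3 pools are separate beyond being litter-matched replicates. With the block, a p-value measures how class differences vary between these libraries, not the difference that all classes of a library share. That spread is borrowed across all classes in the fit. Shares carry exact 95% Clopper-Pearson intervals, and a count of 0 allows up to 3 counts. Equal-depth shares were computed for 2000 UMIs per cell, leaving out shallower cells, and cells split by a Sox9 UMI were thinned to 2000 with a fixed seed. Doublets were left out only as barcodes in 2 or more gates. Scrublet marked 0.02%, 4.67% and 3.74% of barcodes and did not work in library 1, so it served only as an alternative. Scripts were tested on simulated data.

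Named genes are the members, up to 3 genes each way per fixed list and comparison that were called, by size of log2 fold change and with at least 5 CPM, and the 5 genes most like each member. Other genes are given to account for a list or to check a class. Members, gates and lists were chosen with earlier results of these data known. Alternatives were DESeq2 1.42.0, RLE factors, other filters, gates and depths, the fit without the block and leaving out each library.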

Additional observations from a re-analysis of the deposited data

How the results depend on the processing

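Of 21 tested values, 16 were called, and over 254 recomputed values of these, 250 kept direction and call, 4 lost the call and 0 turned. The calls were lost for Sox9 between nucleus pulposus cells and chondrocytes without the replicate block (-1.78, edgeR adjusted p = 0.0583, within a range of 3.95e-11 to 0.0583), for Sox5 between nucleus pulposus and connective cells with at least 2 markers (1.76, adjusted p = 0.0552), and on leaving out a library for that value (1.45 to 2.47) and for Sox5 in erythroid cells (2.65 to 3.79). The block changed no other call. Leaving out each library gave -2.66 to -1.67 for Sox9 between nucleus pulposus cells and chondrocytes.

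Values that were never called turned sign. Sox6 between nucleus pulposus cells and chondrocytes moved most with at least 2 markers, to -0.668 (SE 0.326, edgeR adjusted p = 0.127), in the direction of the reported value. It was 0.0811 with at least 4 markers, 0.16 with 2-gate barcodes given to 1 class, 0.326 at 1 to 15% mitochondrial UMIs, 0.223 with at least 1000 genes, and -0.309 to 0.0781 on leaving out a library. Sox9 in erythroid cells was 0.321 with only the classes compared, 1.3 with 2-gate barcodes, 0.413 at 5% mitochondrial UMIs or less, 0.057 with at least 1000 genes, and -0.0882 to 0.548 on leaving out a library. Against Sox9-undetected cells, Sox5 in chondrocytes was -0.108 at 1000 UMIs and Sox6 in nucleus pulposus cells -0.0779 at 4000 UMIs. The cause was not tested.

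Of 105 gene counts under alternatives, 12 moved by over 1.5 times. The 3748 genes called between nucleus pulposus cells and chondrocytes became 2448 with only those classes and 2217 without library 2. The 2349 between chondrocytes and connective cells became 1282 without library 2 and 1415 without library 3, the 3676 between nucleus pulposus and connective cells 2151 with only those classes, and the 7545 between chondrocytes and blood cells 4938 without library 2. For cells split by Sox9, 0 in chondrocytes became 4 and 32 at 1000 and 4000 UMIs and 3 without library 3, and 11 in nucleus pulposus cells became 5 and 0 at those depths and 0 without the block. DESeq2 moved the median log2 fold change of all genes from 0.26 to -0.02 for chondrocytes and 0.15 to -0.17 for nucleus pulposus cells against connective cells, and from -0.04 to -0.49 for erythroid cells. Sox5 in erythroid and in nucleus pulposus against connective cells could not be tested with only the classes compared, and the nucleus pulposus split could not be fitted without library 1 or 2. Nucleus pulposus values of library 3 rest on 24 cells and limit every statement on them.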
